A study of Mus musculus with 24 samples.

Results

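The TCP1 ring chaperonin, also called TRiC or CCT, is the folding machine of the cytosol, built from the products of the 8 genes Tcp1, Cct2, Cct3, Cct4, Cct5, Cct6a, Cct7 and Cct8. Its subunit genes were chosen by symbol: every probe whose annotation gives exactly 1 gene symbol, and that symbol 1 of these 8, was taken. This gave 19 of 15360 probes and 7 of 6970 genes. The first of 2 value tables held 14 of the probes, for Tcp1, Cct3, Cct4, Cct5, Cct7 and Cct8. The second held 5, for Cct2, Cct4, Cct5 and Cct7. Cct6a was not analysed here, and 1 further probe that lists Cct3 beside another gene was left out.

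In the closed complex, rings of these related subunits are stacked back to back, each subunit at a fixed position, and ATP binding and hydrolysis shut a lid over the client protein. Actin and tubulin cannot reach their native fold without it, and proteins with WD40 repeats are another large class of clients. Prefoldin hands nascent actin and tubulin to the ring, and heat shock factors are known to activate the subunit genes in mammalian cells.

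Mouse embryos in culture at 37 °C were exposed to 40 µM 4-hydroperoxycyclophosphamide for 1 h (treated embryos) or left untreated at 37 °C (control embryos). The compound, abbreviated 4CP, is a form of the alkylating anticancer drug cyclophosphamide that needs no activation by liver enzymes. Treated and control RNA were hybridised together on 24 two-channel arrays, 2 on each of 12 slides, and the slides form 6 pairs in which the second slide has the channels swapped, 3 pairs in each table of 7680 probes. Strain, stage, pooling of embryos, dyes and the nature of the second array of a slide are not given by the labels.

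Every value is a log ratio between the RNA of treated and of control embryos, and each array was centred on its median. Per slide pair, the value with treated RNA in channel 1 minus the value with it in channel 2, divided by 2, is the treatment effect, and their sum divided by 2 is the channel component. If channel 1 is the numerator, treated embryos with more RNA than control embryos give a positive effect; otherwise all signs turn. The labels do not settle this, nor whether swapped slides were turned before deposit, in which case the channel component would be the treatment effect. The log base is also unstated. An effect of 0.15, the highest mean among the ring probes, would be 1.11-fold in base 2 and 1.16-fold in base e. The labels do not say that the pairs come from separate cultures, so the p-values speak of the spread of slide pairs alone, and that spread may be technical. Nor do they say whether a pair number stands for the same RNA in both tables. Ratios hold no levels, and the embryo label could not be set against the levels of marker genes.

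The promoter windows of 3 subunit genes are shown because Cct7 had the highest mean effects of the family in the first table, Cct2 the lowest gene mean, and Cct5 was measured in both tables. They are RefSeq sequences of build GRCm38.p6, 5′ to 3′ on the gene's strand, each 300 bases long and ending shortly past the annotated start. Capitals mark the CCAAT box (CCAAT, or ATTGG on the other strand), the GC box (GGGCGG or CCGCCC) and the 2 core forms of a heat shock element (GAANNTTC and TTCNNGAA, which can overlap each other).
Cct7: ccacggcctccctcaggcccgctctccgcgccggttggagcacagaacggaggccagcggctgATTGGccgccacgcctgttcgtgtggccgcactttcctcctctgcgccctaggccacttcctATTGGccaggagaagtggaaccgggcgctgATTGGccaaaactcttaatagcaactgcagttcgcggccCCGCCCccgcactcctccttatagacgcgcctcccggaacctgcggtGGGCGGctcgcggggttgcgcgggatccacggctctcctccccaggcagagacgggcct
Cct5: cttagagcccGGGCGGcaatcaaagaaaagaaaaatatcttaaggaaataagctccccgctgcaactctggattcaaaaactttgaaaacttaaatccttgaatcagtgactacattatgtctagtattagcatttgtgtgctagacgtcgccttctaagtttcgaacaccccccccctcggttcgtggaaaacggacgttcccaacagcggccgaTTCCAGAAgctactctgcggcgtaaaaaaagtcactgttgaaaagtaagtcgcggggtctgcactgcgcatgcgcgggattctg
Cct2: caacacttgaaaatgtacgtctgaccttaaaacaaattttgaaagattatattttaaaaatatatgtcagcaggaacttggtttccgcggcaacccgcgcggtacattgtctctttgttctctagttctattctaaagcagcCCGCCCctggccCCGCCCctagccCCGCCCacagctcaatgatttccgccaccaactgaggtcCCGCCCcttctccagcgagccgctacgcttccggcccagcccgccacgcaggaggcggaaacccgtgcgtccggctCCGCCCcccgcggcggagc

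The Cct7 window, at chr6:85451255-85451554 on the plus strand, held 3 CCAAT boxes and 2 GC boxes. The Cct5 window, at chr15:31601797-31602096 on the minus strand, held 1 GC box and 1 TTCNNGAA core. The Cct2 window, at chr10:117063803-117064102 on the minus strand, held 5 GC boxes and no CCAAT box. Among the 7 subunit genes with a window in the RefSeq table, which include Cct6a, all 7 held a GC box and 4 a CCAAT box (Tcp1, Cct3, Cct6a and Cct7). Of all 32851 windows of 300 bases, 35.7% held a GC box and 37.4% a CCAAT box. Either heat shock core stood in the windows of Cct5 and Cct6a, 2 of 7, and in 15.1% of all windows. These counts are for the outermost annotated start of each gene; a further Cct2 window at an inner start held 1 GAANNTTC core. A match describes letters and not a bound site.

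Whether the ring subunit transcripts differ between embryos after 1 h in 4CP and control embryos is the question of the comparison. Of the 14 first-table ring probes, 13 had a positive mean effect relative to the array median, against 46.2% of all probes, and 11 of these 13 turned negative without centring. In all 3 pairs 9 of 14 were positive, against 11.4%. Their median effect was 0.07, with -0.0047 for all probes. The Cct7 probes were the highest by mean and alone held their effect in pair 3, at 0.12 to 0.18, where the other 11 first-table probes ran from -0.10 to 0.03. No ring probe passed the test in either table: in limma with Benjamini-Hochberg adjustment over all 7680 probes, 0 of 14 first-table probes (0% of all) and 0 of 5 second-table probes (0% of all) had an adjusted p under 0.05.

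By limma without adjustment, p was under 0.05 for 2 of 14 first-table probes, both of Cct7, against 2.34% of all probes, and for 0 of 5 second-table probes, against 5.22%. With the pairing left out of the fit, 1 of all 7680 probes reached this unadjusted level in each table. Of the 5 second-table probes, 3 had a positive mean, against 48.4%, and the median was 0.0026. With the probes of a gene averaged, 6 of 6 first-table genes had a positive mean (51% of all genes) and 4 were positive in all 3 pairs (13.4%). In the second table these were 3 of 4 genes (46%) and 1 of 4 (9.72%). The signs hold only relative to an array's median probe. In values used as deposited, without centring, the median effect of all first-table probes was -0.13 and of all second-table probes -0.05, and 11 of the 13 positive first-table probes and all 3 positive second-table probes turned negative.

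**Figure D1:**
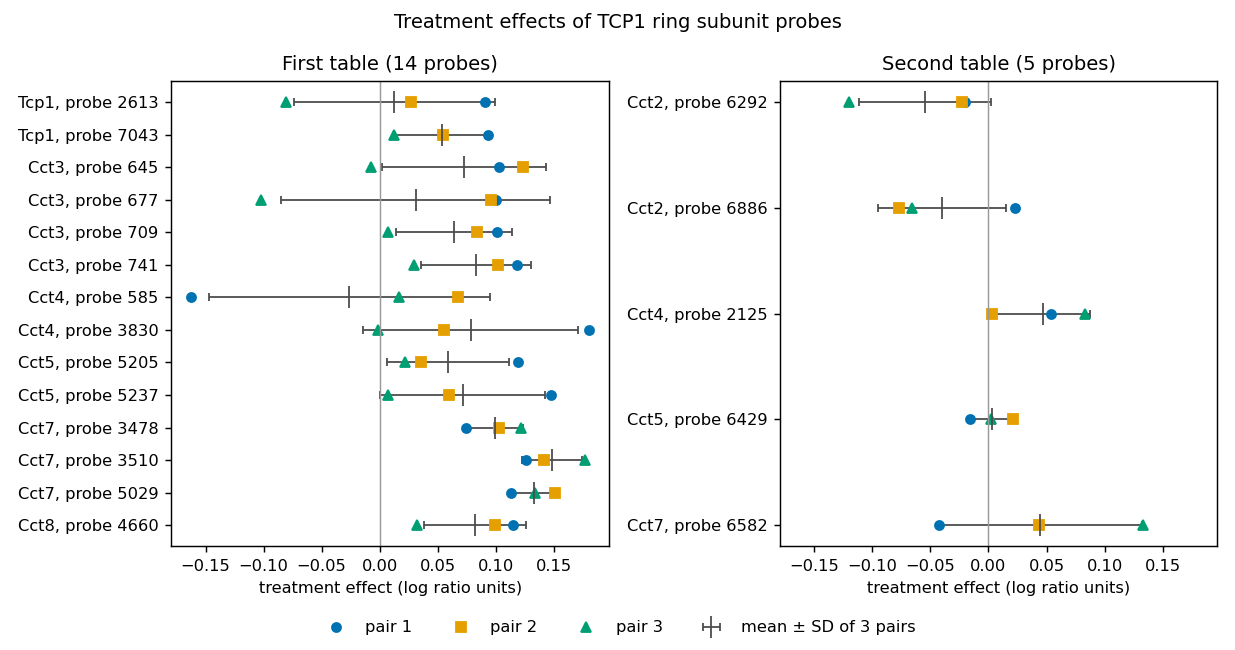
Treatment effect in log ratio units (x axis) of each ring subunit probe (y axis), with pairs 1, 2 and 3 as separate symbols and the mean ± SD of the 3 pairs as a bar. The 3 first-table Cct7 probes lie between 0.07 and 0.18 in every pair, while most others are near 0 in pair 3; without centring, 11 of the 13 positive means of the first table and all 3 of the second turn negative.

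Cct7 encodes the eta subunit and was measured by 3 first-table probes and 1 second-table probe. Probe 3510 had slide values of -0.31, 0.27 and -0.47 in pairs 1, 2 and 3 with treated RNA in channel 1, against -0.56, -0.02 and -0.82 on the swapped slides. Probe 5029 had -0.37, 0.30 and -0.52 with treated RNA in channel 1, against -0.60, 0.0019 and -0.79 on the swapped slides. Probe 3478 had -0.34, 0.30 and -0.57, against -0.49, 0.09 and -0.81. In every one of these comparisons the slide with treated RNA in channel 1 was the higher one. Both slides of pair 2 were higher than those of pairs 1 and 3 at each probe.

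The effects of probe 3510 were 0.13, 0.14 and 0.18 in the 3 pairs, with a mean of 0.15 ± 0.03 (SD, n = 3) and a 95% interval in limma of 0.04 to 0.26. Probe 5029 had 0.11, 0.15 and 0.13, a mean of 0.13 ± 0.02 (SD, n = 3) and an interval of 0.03 to 0.24. Probe 3478 had 0.07, 0.10 and 0.12, a mean of 0.10 ± 0.02 (SD, n = 3) and an interval of -0.0073 to 0.21. The 3 probes differed by 0.05 to 0.06 within a pair, close to the 0.04 by which their average moved between pairs. In limma the unadjusted p-values of probes 3510, 5029 and 3478 were 0.012, 0.020 and 0.064, and each had an adjusted p of 0.997 (Benjamini-Hochberg).

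The second-table Cct7 probe, 6582, had slide values of -0.54, 0.37 and -0.53 with treated RNA in channel 1, against -0.46, 0.28 and -0.80 on the swapped slides. Its effects were -0.04, 0.04 and 0.13, a mean of 0.04 ± 0.09 (SD, n = 3), with an adjusted p of 0.977 in limma. Without pair 3 the mean of this probe was 0.00042. Only pair 3 of the second table thus gave an effect of the size seen in the first. In the pair numbered 3 all 4 Cct7 probes of both tables gave nearly the same slide values: -0.57 to -0.47 with treated RNA in channel 1 and -0.82 to -0.79 on the swapped slides. Whether pair 3 is the same RNA in both tables is not known, so the second table may not be a separate observation.

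In the pair numbered 3 of each table Cct7 stood above the rest of the ring, a pattern that was noticed after the values were seen and was not tested. The 3 first-table Cct7 probes averaged 0.14 there, while the other 11 probes averaged -0.0060 and ran from -0.10 to 0.03. The second-table probe had 0.13, while the other 4 averaged -0.03 and ran from -0.12 to 0.08. The difference between Cct7 and the other probes was 0.15 and 0.16 in pair 3 of the first and second table, 0.06 in pair 2 of both, and 0.01 and -0.05 in pair 1. Among all probes of a table, the pair 3 effects of the 4 Cct7 probes lay at percentiles 94.1 to 97.0.

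Tcp1, the alpha subunit, is the founding member of the family and takes its name from the mouse t complex on chromosome 17. Probe 2613 had slide values of -0.32, 0.02 and -1.25 in pairs 1, 2 and 3 with treated RNA in channel 1, against -0.50, -0.03 and -1.09 on the swapped slides. Probe 7043 had -0.12, 0.23 and -0.86, against -0.30, 0.12 and -0.88. The effects were 0.09, 0.03 and -0.08 for probe 2613 and 0.09, 0.05 and 0.01 for probe 7043. Both probes thus had their highest effect in pair 1 and their lowest in pair 3, where they differed by 0.09. The means were 0.01 ± 0.09 and 0.05 ± 0.04 (SD, n = 3 each).

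Cct2, the beta subunit, was measured only in the second table, and it is the gene with the lowest mean effect. Probe 6292 had slide values of -0.54, -0.06 and -1.11 with treated RNA in channel 1, against -0.50, -0.02 and -0.87 on the swapped slides. Probe 6886 had -0.65, -0.05 and -1.14, against -0.69, 0.10 and -1.01. The effects were -0.02, -0.02 and -0.12 for probe 6292, the only ring probe negative in all 3 pairs (14.7% of all second-table probes were), and 0.02, -0.08 and -0.07 for probe 6886. The means were -0.05 ± 0.06 and -0.04 ± 0.05 (SD, n = 3 each), and the limma 95% intervals of -0.13 to 0.02 and -0.11 to 0.03 include 0. No first-table probe of Cct2 was analysed, so whether it would differ from the other subunits on 1 platform was not tested.

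Cct3, the gamma subunit, had 4 first-table probes. Their effects ran from 0.10 to 0.12 in pair 1, from 0.08 to 0.12 in pair 2 and from -0.10 to 0.03 in pair 3. The low end of pair 3 is probe 677, whose effect there was -0.24 on the first arrays of the slides and 0.04 on the second; the other 3 probes had -0.0079 to 0.03. The means were 0.07 ± 0.07, 0.03 ± 0.12, 0.06 ± 0.05 and 0.08 ± 0.05 (SD, n = 3 each) for probes 645, 677, 709 and 741. All 4 probes were therefore alike in pairs 1 and 2, within 0.02 and 0.04, and spread by 0.13 in pair 3.

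Cct5, the epsilon subunit, in which a human mutation causes a sensory neuropathy, is 1 of 3 subunits measured in both tables. The first-table probes 5205 and 5237 had slide values of -0.52 and -0.48 in pair 1, -0.04 and -0.04 in pair 2 and -1.14 and -1.12 in pair 3 with treated RNA in channel 1. On the swapped slides they had -0.76 and -0.78, -0.11 and -0.16, and -1.19 and -1.14. Both were higher with treated RNA in channel 1 in every pair, most of all in pair 1. Their effects were 0.12, 0.04 and 0.02 for probe 5205 and 0.15, 0.06 and 0.0070 for probe 5237, with means of 0.06 ± 0.05 and 0.07 ± 0.07 (SD, n = 3 each). The second-table probe, 6429, had effects of -0.02, 0.02 and 0.0025 and a mean of 0.0026 ± 0.0186 (SD, n = 3), with a limma 95% interval of -0.06 to 0.07.

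Cct4, the delta subunit, also linked to a sensory neuropathy in the rat, had probes that disagreed with each other. First-table probe 3830 had slide values of -0.15, -0.0092 and -1.31 with treated RNA in channel 1, against -0.51, -0.12 and -1.31 on the swapped slides. Probe 585 had -0.16, 0.79 and 0.50, against 0.16, 0.65 and 0.47. In pair 1 the effects were 0.18 for probe 3830, the highest of the 14, and -0.16 for probe 585, the lowest, a gap of 0.34, while in pairs 2 and 3 the gaps were 0.01 and 0.02. The means were 0.08 ± 0.09 and -0.03 ± 0.12 (SD, n = 3 each). The second-table probe, 2125, had effects of 0.05, 0.0033 and 0.08, a mean of 0.05 ± 0.04 (SD, n = 3), and was the only second-table ring probe positive in all 3 pairs, against 9.84% of all probes.

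Cct8, the theta subunit, had 1 probe in the first table. Its slide values were -0.46, 0.06 and -1.08 with treated RNA in channel 1, against -0.69, -0.13 and -1.14 on the swapped slides. The effects of 0.11, 0.10 and 0.03, with a mean of 0.08 ± 0.04 (SD, n = 3), follow the order of the pairs seen for Tcp1 and Cct5. No adjusted p of a ring probe in limma was under 0.949.

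The effects differed between slide pairs and between the tables. In the first table the medians of the 14 ring probes were 0.11, 0.09 and 0.01 in pairs 1, 2 and 3, and 13, 14 and 10 of 14 were positive, against 58.6%, 51.2% and 40.6% of all probes. Between the 2 arrays of a slide the medians of the ring probes were 0.17 and 0.06 in pair 1, 0.05 and 0.11 in pair 2, and 0.0043 and 0.03 in pair 3. The 5 second-table ring probes had medians of -0.02, 0.0033 and 0.0025, and 2, 3 and 3 of them were positive, against 46.3%, 49.3% and 47.4%. The ring medians were thus highest in pairs 1 and 2 of the first table and near 0 in every pair of the second. The tables were normalized separately and hold different probes, so the difference between them was not tested.

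**Figure D2:**
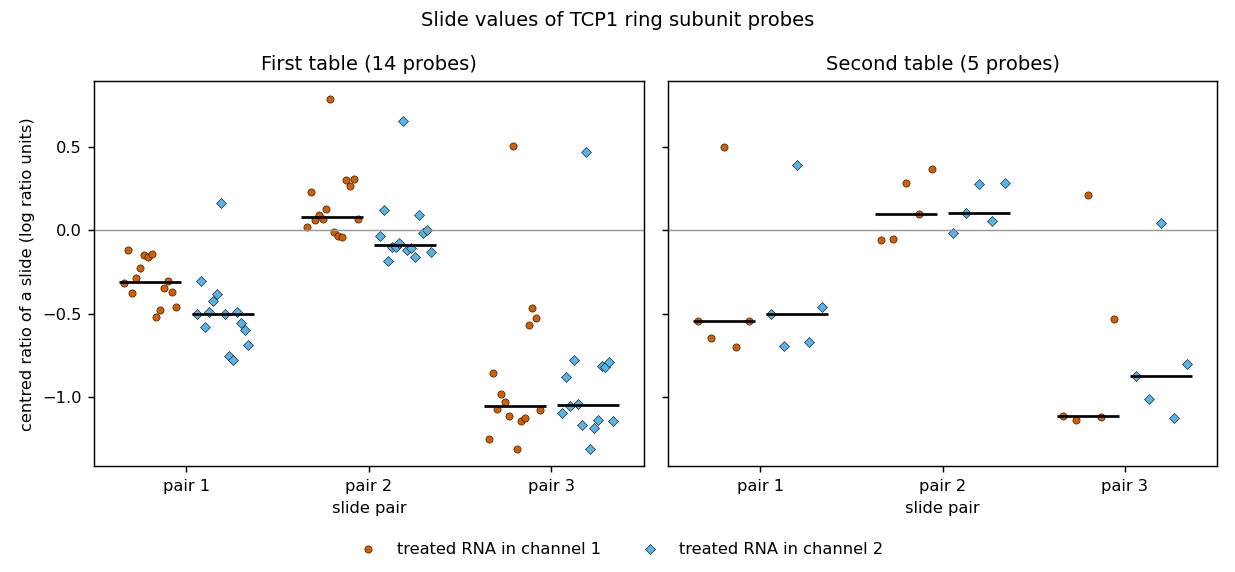
Centred log ratio of each slide (y axis, log ratio units) for the ring subunit probes by slide pair (x axis), with circles for slides with treated RNA in channel 1, diamonds for slides with treated RNA in channel 2, and bars for the median. The first-table medians are -1.05 for both slides of pair 3 and 0.08 and -0.09 in pair 2. The isolated high points are Cct4 probe 585 in the first table and Cct4 probe 2125 in pairs 1 and 3 of the second. Probe 585 does not stand apart in pair 1 with treated RNA in channel 1 (-0.16). In pair 2 of the second table Cct7 probe 6582 is the highest, at 0.37 and 0.28.

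The plot of slide values shows that the ring probes shared a level that went with the slide pair more than with the channel of the treated RNA. The median channel component of the 14 first-table probes was -0.41, -0.0056 and -1.05 in pairs 1, 2 and 3. That of the 5 second-table probes was -0.52, 0.07 and -0.99. It was negative on average for 13 of 14 first-table ring probes (47.8% of all probes) and 4 of 5 second-table ones (56.4%). The ring medians of the mean channel component were -0.46 and -0.52 in the first and second table. Over gene averages, actins had -0.80 and -0.75, tubulins -0.61 and -0.82, and proliferation genes -0.46 and -0.53, so a low level was not particular to the ring. Yolk sac endoderm genes (0.11) and the erythroid gene Gata1 (0.17) of the first table lay above 0. The primitive erythroid genes of the second table had a median of -0.74. The Cct5 averages show how alike the tables were in this: the first-table one was -0.63, -0.09 and -1.15, and the second-table one -0.68, 0.07 and -1.12. Cct7 was less negative in pair 3, with a first-table average of -0.44, 0.16 and -0.67 and a second-table value of -0.50, 0.32 and -0.67.

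If swapped slides had been turned before deposit, these would be the treatment effects. In limma on the channel component 0 of 14 first-table ring probes passed (2.85% of all probes did), with a lowest adjusted p of 0.117, and 0 of 5 second-table ones (0%), with a lowest of 0.249. Unadjusted, p was under 0.05 for 8 of 14 (18.5%) and 3 of 5 (16.3%). The exceptions in sign were Cct4 probe 585, with a mean channel component of 0.40 ± 0.37 (SD, n = 3), and Cct4 probe 2125 of the second table, with 0.28 ± 0.16 (SD, n = 3). Cct4 probe 3830 had -0.57 ± 0.66 (SD, n = 3), so probes 585, 2125 and 3830, all annotated to Cct4, lay at percentiles 92.7, 93.3 and 7.57 of their tables. Whether all of them detect the Cct4 transcript was not tested.

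Over all probes of the first table, the treatment effect and the channel component were related within a slide pair, with Pearson r of -0.46, 0.37 and 0.15 in pairs 1, 2 and 3 over 7680 probes that share the same slides. In the second table r was 0.10, 0.12 and 0.14. The ring probes sat on the low side of the channel component in pair 1 of the first table, the side on which effects of all probes were higher. In pair 3, where they lay lowest and r was positive, it was the side of lower effects. With the trend on the channel component removed within each pair, the median of the 14 ring probes was 0.05, and the 3 Cct7 probes had 0.06, 0.11 and 0.09. The part of this trend in the ring probes' effects was not tested further.

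**Figure D3:**
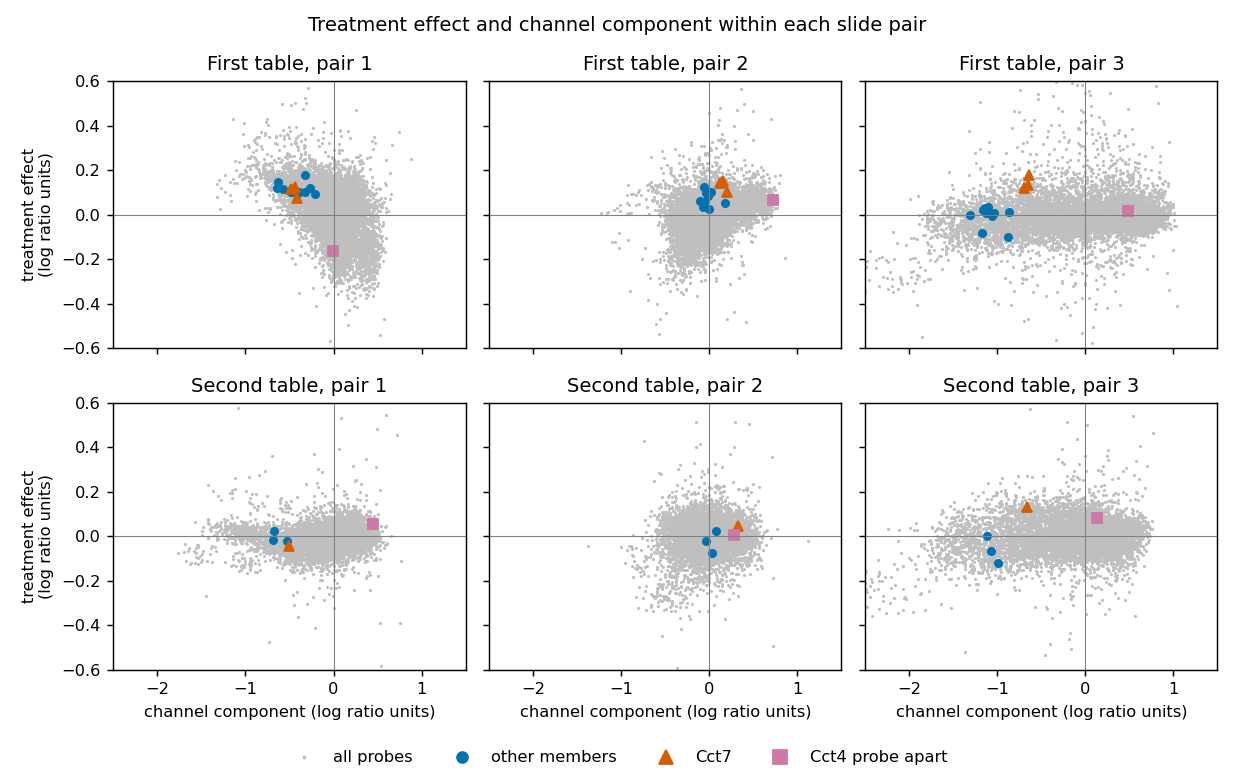
Treatment effect (y axis) against channel component (x axis), both in log ratio units, for all 7680 probes (grey), the ring subunit probes, the Cct7 probes and the Cct4 probe apart, by table and slide pair; 3 to 30 probes per panel lie outside the axes. In pair 3 the Cct7 probes sit to the right of and above most other ring probes in both tables.

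Around the ring, the prefoldin list had a negative median in the first table, and the single phosducin-like gene measured there, Pdcl, a negative mean. The prefoldin genes Vbp1, Pfdn4 and Pfdn6 had a median effect of -0.03, with 1 of 3 genes positive, against 51% of all genes. Their medians in pairs 1, 2 and 3 were 0.05, -0.06 and -0.08, so the sign changed between pairs. The Pfdn6 probes 1158 and 6257 had means of -0.01 and 0.03. Pfdn5 and Pfdn1, in the second table, had means of 0.0065 ± 0.0416 and 0.06 ± 0.11 (SD, n = 3 each). Pdcl, a phosducin-like co-factor that works with the ring in assembling G protein beta-gamma dimers, had -0.03 ± 0.07, and its second-table relative Pdcl3 had 0.04 ± 0.05 and was positive in all 3 pairs, against 9.84% of all probes. The tubulin folding cofactors Tbcd and Tbcb, which take over tubulin released from the ring, had -0.03 ± 0.02 and -0.03 ± 0.0056 (SD, n = 3 each) and were negative in all 3 pairs, against 14.7% of all probes. No gene of these lists passed in limma, up or down.

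The clients are given by family and table, and differences between these were not tested. With the probes of a gene averaged, tubulin genes were positive in 6 of 6 cases in the first table, against 51% of all genes. In all 3 pairs 5 of them were positive, against 13.4%, and their median was 0.07. The highest probe mean was 0.11 ± 0.06 (SD, n = 3) for Tuba1b, an alpha tubulin. The lowest were those of Tubb4b probes 1349 and 1381, at -0.015 ± 0.017 and 0.028 ± 0.020 (SD, n = 3 each). Tubb5, a beta tubulin, had 0.09 ± 0.03 (SD, n = 3) in the first table, while its 3 second-table probes had -0.07, -0.0050 and 0.02 and so went both ways. The 2 actin genes of the first table had a median of 0.02, and the 4 named Actb probes ran from -0.05 to 0.06. Other known clients had medians of 0.0035 over 7 genes and 0.0032 over 7 genes in the 2 tables. Among them Cdc20, the WD40 activator of the anaphase-promoting complex, had -0.10 ± 0.06, and Ccne1, cyclin E, had 0.09 ± 0.05 (SD, n = 3 each). No client passed in limma, up or down, in either table.

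The HSP70 and HSP40 list, the HSP90 list and Hspd1 had higher medians than the ring in pairs 1 and 2 of the first table. Apart from Hspd1, they were likewise near 0 in pair 3. Hspd1, the mitochondrial chaperonin HSP60, had 0.17, 0.18 and 0.08 at one probe and 0.19, 0.17 and 0.08 at the other. The HSP70 and HSP40 list was positive in 9 of 10 first-table genes with pair medians of 0.16, 0.16 and 0.0016, and the HSP90 list in 5 of 5 genes with 0.18, 0.14 and 0.01, against 51% of all genes. In the second table these lists were positive in 6 of 7 and 2 of 3 genes, against 46%, with pair medians of 0.07, 0.03 and -0.07 and of 0.08, 0.05 and 0.0065. The lowest of them there was Fkbp5, a co-chaperone of HSP90, with -0.10 ± 0.10 (SD, n = 3). The HSP40 gene Dnajb1 had 0.69, 0.43 and 0.02 at probe 2265 and 0.32, 0.48 and 0.05 at probe 2167. At the low end of the HSP70 and HSP40 list in the first table, Dnajb6 had means of -0.03 and -0.02 at probes 3754 and 6305. The highest second-table mean of that list, 0.36 ± 0.68 (SD, n = 3) for Dnaja2, came from pair 1, with 1.14, 0.0058 and -0.07 in the 3 pairs. Hsp90aa1, the inducible cytosolic HSP90, had 0.52, 0.29 and 0.03 at first-table probe 5365 and 0.36, 0.20 and -0.07 at second-table probe 5371. None of these genes passed in limma. The ring's pair medians over probes, 0.11, 0.09 and 0.01, thus had the same order as those of the HSP90 list, which are over gene averages. That order was not particular to chaperones. The medians of all first-table probes, 0.03, 0.0026 and -0.01, fell in the same way, as did those of the actin and tubulin lists. The ring's medians were smaller than those of the HSP90 list in pairs 1 and 2, a difference that was not tested.

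**Figure D4:**
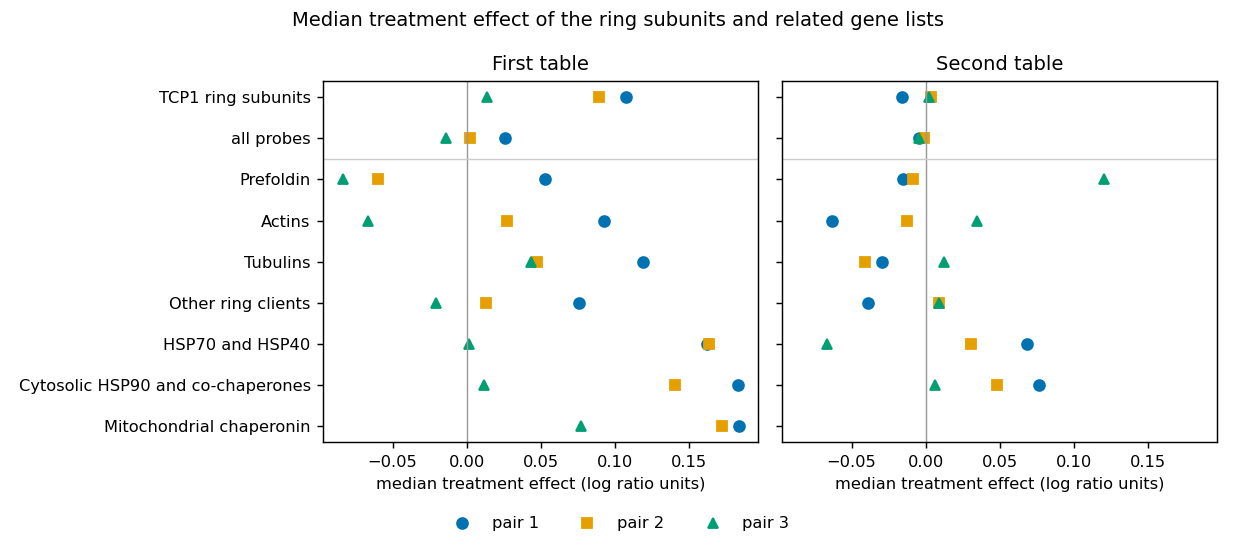
Median treatment effect in log ratio units (x axis) of the ring subunits, of all probes and of related gene lists (y axis), with 1 symbol per slide pair, by table. Medians are over probes for the ring and for all probes, and over gene averages for the lists. In the first table the ring, the HSP70 and HSP40 list, the HSP90 list and Hspd1 are highest in pairs 1 and 2. In pair 3 they are near 0, apart from Hspd1 at 0.08. Prefoldin is at 0.05, -0.06 and -0.08 in pairs 1, 2 and 3 of that table. All signs are relative to the array median, and without centring the mean effects of the ring probes have medians of -0.052 and -0.050 in the 2 tables.

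Markers of other cell types and of proliferation were set beside the ring. In the first table the yolk sac endoderm genes Apob, Apoa1 and Ttr had a median effect of -0.05, with 0 of 3 positive, the trophoblast and decidua genes Krt8, Krt18 and Prl8a2 had 0.09, with 3 of 3 positive, and 6 proliferation genes had -0.01, with 2 of 6 positive, against 51% of all genes. The primitive erythroid genes of the second table had a median of -0.05, with 0 of 3 positive, and 5 proliferation genes had -0.03, with 1 of 5 positive, against 46% of all genes. The trophoblast and decidua list had a second-table median of -0.01, with 1 of 2 genes positive, and Dcn, which encodes decorin, had -0.06 and -0.05 at its 2 probes. None passed in limma, and the part of cell type makeup in the ring's effects was not tested. In whole embryos, fewer cells of a type and less RNA per cell cannot be told apart.

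By Pearson r over the 6 array-level effects of a table (3 pairs by 2 arrays, which share slides and RNA), the probes most like the mean of the ring probes in the first table were those of Lmnb1, Pip5k1c, Usp1, Rabggtb and Atp5a1, with r of 0.985 to 0.999 among 4735 probes. Lmnb1 encodes lamin B1 and had effects of 0.06, 0.05 and 0.0096, against 0.09, 0.09 and 0.03 for the mean of the ring probes. In the second table they were Macroh2a2, Cnot7, Krt18, Uri1 and Tceanc2, with r of 0.954 to 0.983 among 4930 probes. Uri1 encodes a prefoldin-like protein and had effects of -0.03, -0.03 and 0.01, while the mean of the ring probes was -0.00050, -0.0064 and 0.0065. With 6 values against so many probes, such values describe the ranking and carry no test.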

How the data were processed

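Per the labels, treated and control RNA shared each of 24 arrays. The deposited tables hold log ratios of the 2 channels in an unstated base (unit entered as other). The highest value, 7.71, exceeds 4.82, the log10 of a 16-bit range, so base 10 is not possible for unprocessed 16-bit intensities. The labels name no scanner, and base 10 is not excluded for processed values. How the authors corrected background and normalized is not given in the sources used here. No value was missing.

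Arrays were centred on their medians (-0.305 to 1.12 in the first table, 0.272 to 2.10 in the second), and the 2 arrays of a slide were averaged. Within each table, 3 pair effects per probe were tested against 0 with limma 3.58.1 in R 4.3.3 (lmFit, eBayes, Benjamini-Hochberg over 7680 probes, threshold 0.05, two-sided). The fit was tested on simulated data with planted changes larger than any treatment effect of a ring probe, so recovery at the ring's sizes was not tested. The design had assumed log2 ratios; the base leaves the p-values of limma as they are. Swapped slides are paired by the labels' numbering. Signal over background is unknown, and 3 pairs per table limit the precision.

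Of the probes, 4749 and 4935 had 1 symbol, 227 and 275 several, and 2704 and 2470 none; 4712 and 4884 were found in RefSeq. The ring genes and other lists were chosen with earlier results of these data known. All ring probes are named; so is every gene of the short lists (prefoldin, co-factors, mitochondrial chaperonin), at most the 2 highest and 2 lowest probes of other lists, and the 5 probes most like the ring mean. Genes of the chaperonin-like BBS and heat shock factor lists were not analysed here. Alternatives covered centring, scaling, quantile normalization, the block, single arrays, single orientations, left-out pairs, gene averages and robust eBayes.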

Additional observations from a re-analysis of the deposited data

How the results depend on the processing

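For all probes, 0 passed in limma in either table (180 and 401 at an unadjusted p under 0.05). Without centring 33 first-table probes and 1 second-table probe passed. Of first-table probes, 219 passed without the turn of swapped slides, 174 with treated RNA in channel 1 only and 668 with it in channel 2 only. Without pair 1, 2 or 3, 24, 30 and 24 first-table probes and 40, 58 and 0 second-table probes passed. The median of the first-table ring probes was -0.052 without centring, -0.46 without the turn, -0.39 with channel 1 only, 0.53 with channel 2 only, and 0.044 to 0.10 without 1 pair. For the second-table ring probes it was -0.050, -0.52, -0.57 and 0.46 under the same settings, 0.023 on first arrays, -0.018 on second arrays, 0.024 with gene averages and -0.0067 to 0.012 without 1 pair. With settings chosen after seeing the data, it was 0.014 with the channel trend removed and -0.019 without the Cct4 probe that stands apart; centring runs of 240 probe numbers turned no ring probe. Without the replicate block, with the pairing left out of the fit, the medians were 0.072 and 0.0026, 0 probes passed, and no call changed, while the probes at an unadjusted p under 0.05 numbered 1 and 1 in place of 180 and 401 (2 and 0 with slides as a random block).

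Without centring Tcp1 probes 2613 and 7043 had -0.11 and -0.071, Cct3 probes 645, 677, 709 and 741 had -0.051, -0.093, -0.060 and -0.041, Cct4 probe 3830 had -0.046, Cct5 probes 5205 and 5237 had -0.065 and -0.052, Cct7 probe 3478 had -0.024 and Cct8 had -0.042. Second-table Cct4 had -0.0060, Cct5 -0.050 and Cct7 -0.0082. Without the turn the Tcp1 and Cct3 probes had, in that order, -0.53, -0.30, -0.53, -0.42, -0.46 and -0.46, Cct4 probes 585 and 3830 had 0.40 and -0.57, Cct5 probes had -0.62 and -0.62, Cct7 probes 3478, 3510 and 5029 had -0.31, -0.32 and -0.33, and Cct8 had -0.57. Second-table Cct5 and Cct7 had -0.58 and -0.28. With treated RNA in channel 1 only, the Tcp1 probes had -0.52 and -0.25, the Cct3 probes -0.46, -0.39, -0.40 and -0.38, the Cct4 probes 0.38 and -0.49, the Cct5 probes -0.57 and -0.55, the Cct7 probes -0.21, -0.17 and -0.20, Cct8 -0.49, and second-table Cct5 and Cct7 -0.57 and -0.24. With it in channel 2 only, second-table Cct2 probes had 0.46 and 0.53 and Cct4 had -0.24. In that setting 3 first-table probes passed in limma, Cct5 probes 5205 and 5237 at 0.68 and 0.69 and Cct8 at 0.65 (adjusted p = 0.0378, 0.0336 and 0.0450). A single orientation leaves the channel component in the value.

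Small effects changed sign elsewhere; the cause was not tested. Tcp1 probe 2613 had -0.011 with the channel trend removed and -0.027 to 0.059 without 1 pair. Cct3 probe 677 had -0.0079 on first arrays and -0.0033 to 0.098 without 1 pair. Cct4 probe 585 had 0.0072 on second arrays, 0.026 with gene averages and -0.073 to 0.042 without 1 pair. Second-table Cct5 had -0.018 on second arrays and -0.0067 to 0.012 without 1 pair. Beyond these, no ring probe changed sign or call under the alternatives run. Signal over background is unknown, and 3 pairs per table limit the precision.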

Other observations

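Treatment effects from the first and from the second arrays of the slides correlated over all 7680 probes with Pearson r of 0.60, 0.30 and 0.49 in pairs 1, 2 and 3 of the first table. In the second table r was 0.18, 0.04 and 0.27. These correlations are across probes, which are not independent, and carry no test. For Cct7 probe 6582 of that table the effects were -0.06 and -0.03 on the first and second arrays of pair 1, 0.10 and -0.0078 in pair 2, and 0.14 and 0.12 in pair 3.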
